A study of Homo sapiens with 6 samples.

Results

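The 39 genes described here supply amino acids to SK-N-SH, a line of human neuroblastoma cells, or load amino acids onto transfer RNA (tRNA). They were picked out of the table by a list of gene symbols, and all 39 were found among the 26789 genes of the table, each once. They are 6 enzymes of serine, glycine and one-carbon synthesis, 5 of asparagine and proline synthesis and transamination, 2 of transsulfuration, 6 amino acid transporters and 20 cytosolic aminoacyl-tRNA synthetases. RNA was measured in 3 samples of SK-N-SH cells in medium alone (control) and in 3 samples with dopamine in the medium for 6 h. The labels name no genetic change in either group, and both had been kept for 24 h in standard serum-containing medium before the treatment. The dose of dopamine is printed in the labels as 40 M, apparently with a lost prefix, and is not interpreted. The series text names SH-SY5Y, a subline of SK-N-SH, as the treated cells, whereas the 6 samples are labelled SK-N-SH. Nothing in the labels says that the replicates were separate cultures, so the p-values reflect only how much these samples vary, which may be technical variation.

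Cells take up most amino acids through carriers in the plasma membrane and make others, such as serine, asparagine and proline, from sugar and glutamine carbon. Each synthetase joins 1 amino acid to its tRNA, and uncharged tRNA activates the kinase GCN2, which slows protein synthesis while favouring translation of the transcription factor ATF4. ATF4 binds, with partners of the C/EBP family, a composite element found near many genes for amino acid synthesis, uptake and tRNA charging, and heme depletion, oxidative stress and unfolded proteins reach the same factor through other kinases. Dopamine oxidizes in culture medium, forming quinones and hydrogen peroxide.

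The composite element is shown for the members that hold it. It is known near genes of the kinds listed here, so its share among the members is not independent of their choice. RefSeq windows (GRCh38.p14) from 250 bases before to 50 bases after a transcript start were searched on both strands for TGATGNAA, a short form of the element. A match was present in 13 of the 31 members with a window (41.9%), and in 1217 of all 27305 genes with one (4.46%). Of the tested genes found among the windows by symbol, 194 had a match and 7772 had none. Counted by window, 13 of 43 member windows (30.2%) and 1270 of all 35116 (3.62%) held it. By role, 7 of 16 synthetases and 6 of 15 other members had a match. The members with no window in the table were PSPH, SHMT2, PYCR1, GPT2, DARS, LARS, VARS and YARS. Each line gives 30 bases in the direction of transcription, with the match in capitals. Positions in these lines are in GRCh38.p14, whereas the gene spans given further on are in hg19. A match written TTGCATCA or TTTCATCA is the element on the opposite strand.
ASNS, chr7:97872458-97872487, minus strand: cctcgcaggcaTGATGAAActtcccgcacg
GOT1, chr10:99430804-99430833, minus strand: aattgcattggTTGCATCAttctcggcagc
SLC1A4, chr2:64989381-64989410, plus strand: gcggctcccgtTTGCATCAtctccagccgg
SLC1A5, chr19:46784893-46784922, minus strand: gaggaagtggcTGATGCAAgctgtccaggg
SLC7A1, chr13:29595663-29595692, minus strand: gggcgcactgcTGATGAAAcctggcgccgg
SLC38A1, chr12:46266502-46266531, minus strand: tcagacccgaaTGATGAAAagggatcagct
AARS, chr16:70289675-70289704, minus strand: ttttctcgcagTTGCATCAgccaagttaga
CARS, chr11:3057407-3057436, minus strand: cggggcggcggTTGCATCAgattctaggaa
GARS, chr7:30594834-30594863, plus strand: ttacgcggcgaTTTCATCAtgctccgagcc
IARS, chr9:92293692-92293721, minus strand: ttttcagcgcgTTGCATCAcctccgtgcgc
MARS, chr12:57488053-57488082, plus strand: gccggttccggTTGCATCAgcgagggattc
NARS, chr18:57621804-57621833, minus strand: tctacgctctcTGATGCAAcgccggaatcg
TARS, chr5:33440956-33440985, plus strand: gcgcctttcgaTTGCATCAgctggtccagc
Counting from 1 at the first transcribed base, the ASNS match ran from -68 to -61 and the GOT1 match, the farthest upstream, from -198 to -191. The NARS match lay farthest downstream, from 15 to 22. A match is a stretch of letters and was not tested for binding.

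Values were FPKM, fragments scaled to gene length and library total, so levels may be compared between genes only roughly. The FPKM formula was not given, and library trends on GC content and overlapping genes limit such comparisons. Recovered depth was 19394000 to 24232000 fragments a library, which makes 1 FPKM worth 19.4 to 24.2 fragments per kilobase of transcript. The heme oxygenase gene HMOX1, an oxidative-stress gene, separated the groups as labelled, at 28.9 to 38.2 FPKM in control and 392 to 470 with dopamine (adjusted p = 6.06e-07, limma). Pairs of libraries correlated at 0.957 to 0.994. The 3rd replicates stood apart by base composition. Measured as log2 deviation from the gene means for each 10 points of GC, the slopes of control replicates 1, 2 and 3 were 0.02, 0.11 and 0.22, those with dopamine were -0.03, -0.06 and -0.26, and the groups did not overlap. All 9 adrenergic neuroblastoma markers passed the filter, with summed levels of 345 to 393 FPKM in control and 342 to 392 with dopamine. Mesenchymal markers summed to 1144 to 1285 and 1139 to 1189 FPKM, and fibroblast markers to 677 to 790 and 650 to 803, in the same order. Single genes differed within these sums. Among the tested ones PHOX2A and GATA2 were lower with no overlap, and STMN2, SNAI2 and DCN higher. Of all genes 14.1% were lower and 24.4% higher with no overlap. Immune markers summed to under 0.1 FPKM in each library and endothelial markers to 1.02 or less. Of 5 epithelial markers, the keratins KRT8, KRT18 and KRT19 were lower with no overlap, as were 14.1% of all genes. The 5 summed to 140 to 175 FPKM in control and 105 to 121 with dopamine. EPCAM and CDH1 reached at most 0.197 and 0.126. Nuclear-retained RNA summed to 2.40 to 3.13 FPKM in control and 3.06 to 5.55 with dopamine. The part of these markers and of nuclear RNA in the results was not tested. In bulk RNA, fewer cells of a type and less RNA per cell cannot be told apart.

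No member passed the test for a difference between dopamine and control. With limma on log2(FPKM + 0.5) and Benjamini-Hochberg adjustment, 0 of 39 members were called higher and 0 lower at an adjusted p under 0.05. Of 11791 tested genes 12 (0.102%) were called, 0.0848% higher and 0.0170% lower. The smallest adjusted p among the members was 0.11. Without control replicate 1, 12 members were called higher (16.8% of all genes), and with sample quality weights 16 were (17.4%). All 39 members had a mean of at least 1 FPKM and were tested. An unadjusted p under 0.05 was reached by 15 higher members and 1 lower, VARS, and by 24.4% (higher) and 8.05% (lower) of all genes. Sample values of the groups did not overlap in 14 higher and 2 lower members, compared with 24.4% and 14.1% of all genes, and overlapped in the other 23. Without replicate 3 of both groups they did not overlap in 23 higher and 3 lower members, compared with 31.5% and 18.0% of all genes. The log2 difference (dopamine minus control) had a median of 0.11 over the members and 0.08 over all tested genes. It was above 0 in 29 of 39 members as deposited and after scaling to TPM, 24 after quantile normalization and 20 after median-of-ratios scaling, which moved the median of all genes to 0.00.

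GC content ordered these differences. The GC content of the longest transcript ran from 38.1% (SLC38A2) to 62.6% (VARS) over the members, and the log2 difference was lower where GC content was higher (Pearson r = -0.84, Spearman rho = -0.84, over 39 genes). Over 11579 tested genes the same relation had r = -0.75 and rho = -0.78. Genes are not independent replicates, and all points share the same 6 libraries. Of the 17 members under 48% GC, a boundary set after the values were seen, 13 were higher with no overlap and 0 lower, and their median was 0.49. Of all genes under 48% GC, 44.3% were higher with no overlap and 0.780% lower, with a median of 0.32. Of the 22 members at 48% or more, 1 was higher with no overlap and 2 lower, and their median was 0.02. Of all genes at 48% or more, 7.93% were higher with no overlap and 25.2% lower, with a median of -0.08.

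The 3rd replicates often lay at the ends of their groups. In 13 of the 17 members of low GC content, control replicate 3 was the lowest control and dopamine replicate 3 the highest dopamine sample, and this held for 0 of the 22 others and 29.4% of all genes. In 16 of the 22 GC-rich members dopamine replicate 3 was instead the lowest dopamine sample, as in 4279 of all 11791 tested genes. These shares of all genes were not split by GC content. Because the 3rd replicates stood apart, each library was also corrected for its trend on GC content and transcript length. After it, 0 of 39 members were called, where 28 of 11579 genes (0.242%) were, 0.207% higher and 0.0345% lower. An unadjusted p under 0.05 was then reached by 10 higher and 0 lower members, and by 8.14% and 8.82% of all genes. Groups did not overlap in 11 higher members and 1 lower (11.5% and 12.3% of all genes), the median was 0.03 against 0.00, and r with GC content was -0.33. Under 48% GC, 9 members were then higher with no overlap and 0 lower (12.5% and 10.1% of such genes), and at 48% or more 2 were higher and 1 lower (10.7% and 14.2%). Since the trend differs between the groups, the correction can also remove part of a real difference.

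**Figure D1:**
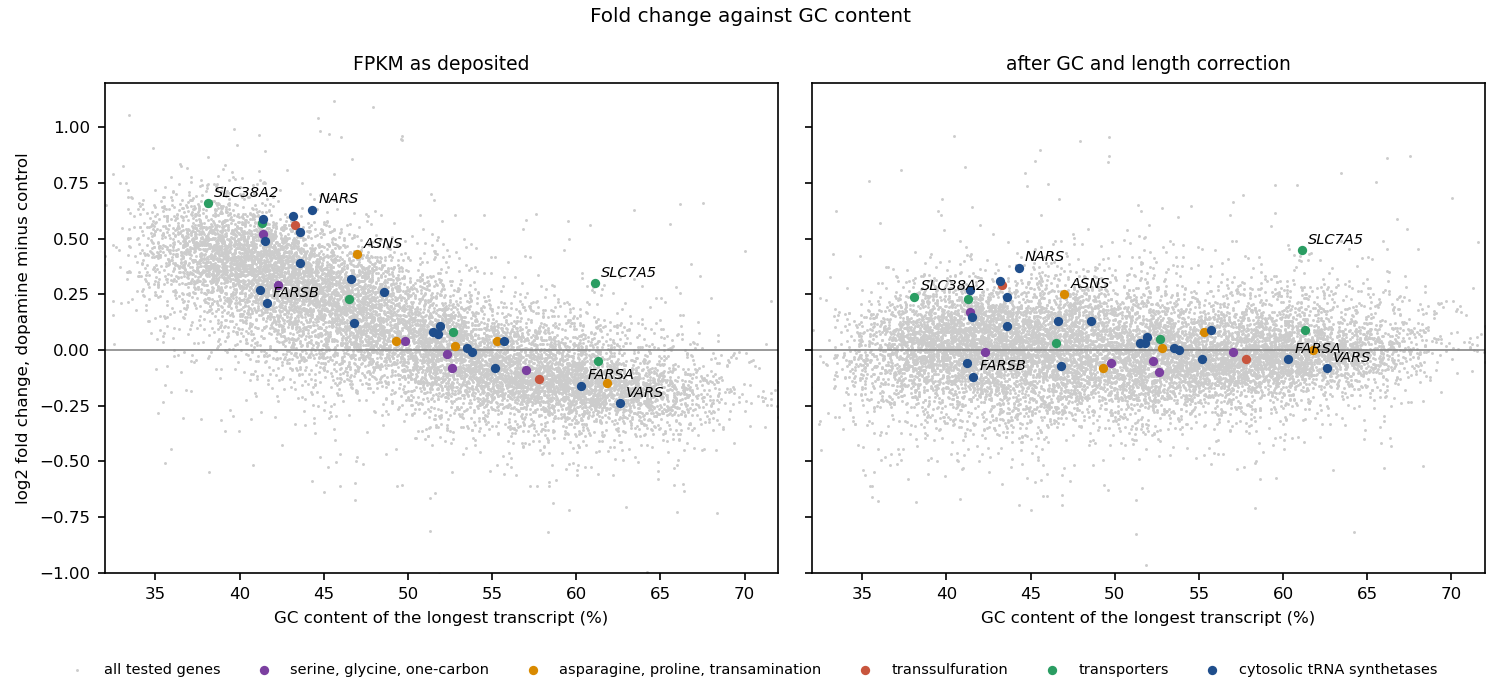
Log2 difference (dopamine minus control, vertical) of each gene against the GC content of its longest transcript in percent (horizontal), as deposited and after the GC and length correction, with members drawn over all tested genes. The members follow the slope of all genes as deposited (r = -0.84), and SLC7A5 stands above that slope.

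The 6 transporters had the highest median of the 5 role groups, 0.27 as deposited and 0.16 after correction. SLC7A5 (LAT1, chr16:87863629-87903094 in hg19), the exchanger that brings in leucine and other large neutral amino acids, measured 29.8, 33.1 and 32.7 FPKM in control replicates 1 to 3 and 39.4, 44.3 and 34.9 with dopamine. The lowest dopamine sample, replicate 3, lay above every control sample. The means were 31.9 ± 1.81 and 39.5 ± 4.68 (SD, n = 3 each), a log2 difference of 0.30 (SE 0.10, adjusted p = 0.111). SLC7A5 is rich in GC (61.1%), and it was the only member of 48% GC or more with higher, non-overlapping groups as deposited. After correction the value was 0.45 (SE 0.07, 95% interval 0.29 to 0.60), the largest of the 39, and its adjusted p of 0.0661 was the smallest of the 39. Over 26 alternative settings the log2 value ran from 0.21 to 0.48 and the adjusted p from 0.0173 to 0.295, and it was called in 1, with sample quality weights.

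SLC3A2, the heavy chain that pairs with SLC7A5 in the membrane and is not a member, was named after its values were seen. It measured 13.8, 16 and 15.6 FPKM in control and 18.4, 19.7 and 15.1 with dopamine, so that dopamine replicate 3 fell among the controls. The log2 difference of SLC3A2 was 0.21 (SE 0.11, adjusted p = 0.199), and 0.29 after correction (adjusted p = 0.173). The ratio of SLC7A5 to SLC3A2 was 2.15, 2.07 and 2.09 in control and 2.14, 2.25 and 2.31 with dopamine, overlapping between groups.

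SLC38A2 (SNAT2, chr12:46751972-46766650), a sodium-coupled importer of small neutral amino acids that rises in amino acid shortage, measured 32.7, 25.4 and 18.3 FPKM in control and 35.8, 36.3 and 47.6 with dopamine. The highest control sample, replicate 1, lay just under the lowest dopamine sample, and control samples spread widely. Its log2 difference of 0.66 (SE 0.19, adjusted p = 0.11) was the largest of the 39 as deposited. It was 0.24 after correction and 0.32 without replicate 3 of both groups. Its neighbour SLC38A1, an importer of glutamine among others, ran from 4.69 to 7.85 FPKM in control and from 8.07 to 11.5 with dopamine, with log2 differences of 0.57 and 0.23 in the same order. SLC7A1 (CAT-1), the importer of arginine and lysine, measured 22.6, 22.7 and 25.3 in control and 23.8, 25.8 and 24.8 with dopamine, with overlapping groups and a log2 difference of 0.08 (adjusted p = 0.495). That sign turned, to -0.01, with median-of-ratios scaling. The neutral amino acid carriers SLC1A5 and SLC1A4 had log2 differences of -0.05 and 0.23 with overlapping groups, and 0.09 and 0.03 after correction, where the sign of SLC1A5 turned.

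**Figure D2:**
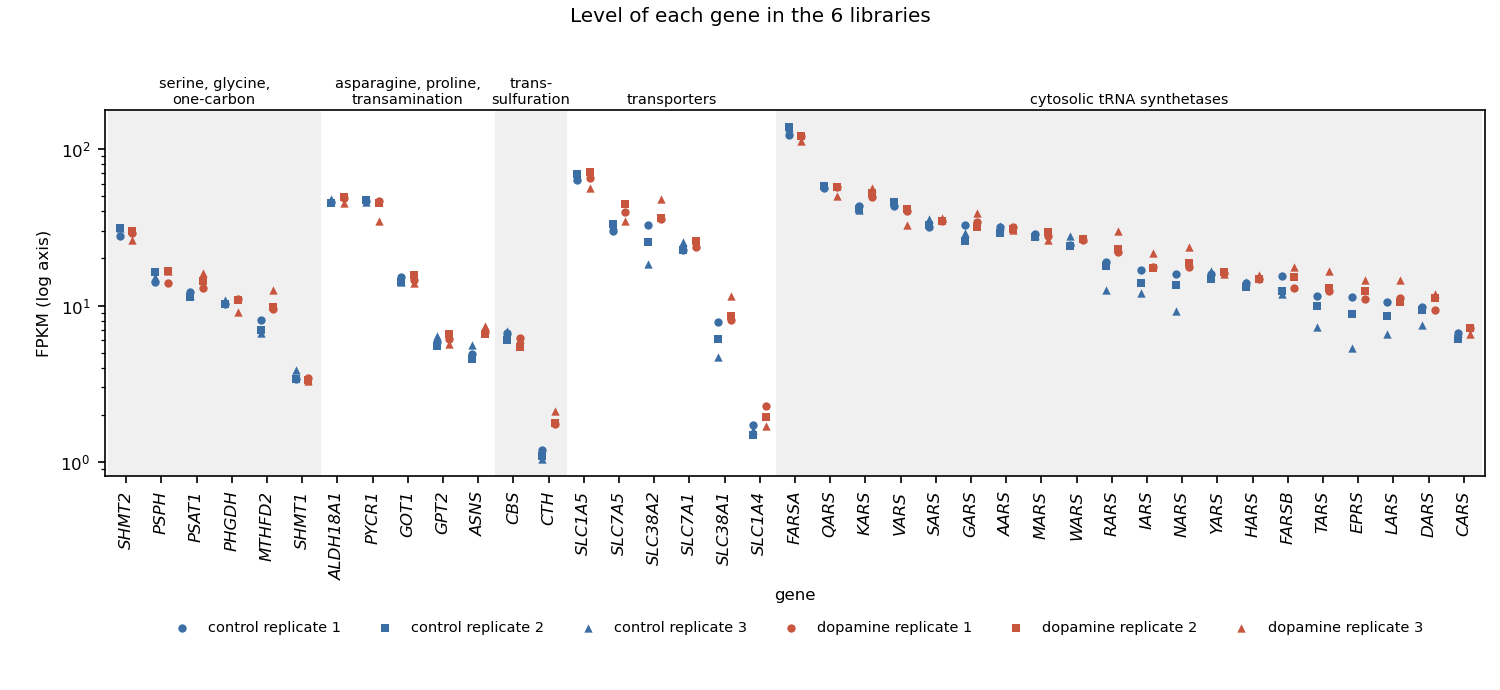
FPKM (log axis) of each of the 39 genes (horizontal) in the 3 control and 3 dopamine samples, 1 point a sample, arranged by role. FARSA is the highest at a mean of 125 FPKM and CTH the lowest at 1.5, and the points of the 2 groups interleave in most genes.

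Of the 6 serine, glycine and one-carbon genes, PHGDH, PSAT1 and PSPH make serine, SHMT1 and SHMT2 convert it to glycine, and MTHFD2 carries the one-carbon unit onward in mitochondria. Only PSAT1 and MTHFD2 had groups that did not overlap, both higher, compared with 24.4% of all genes higher and 14.1% lower. After correction 1 of the 6 was higher and 1 lower with no overlap (11.5% and 12.3% of all genes). MTHFD2 (chr2:74425689-74444692) measured 8.07, 7.01 and 6.65 FPKM in control and 9.54, 9.82 and 12.5 with dopamine. Each dopamine sample was above each control, dopamine replicate 3 by the most. The log2 difference was 0.52 (SE 0.12, adjusted p = 0.11), 0.17 after correction, and 0.34 without replicate 3 of both groups. PSAT1, which makes phosphoserine, measured 12.2, 11.3 and 11.7 in control and 13.0, 14.4 and 16.1 with dopamine. Its dopamine samples all stood above the controls, yet its log2 difference of 0.29 (SE 0.10, adjusted p = 0.113) became -0.01 after correction.

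PHGDH, the first and rate-setting enzyme of serine synthesis, measured 10.2, 10.2 and 10.9 FPKM in control and 11, 10.8 and 9.10 with dopamine. Dopamine replicate 3 was the lowest of the 6, and the log2 difference was -0.02 (95% interval -0.24 to 0.19), positive (0.06) without that sample. SHMT2, the mitochondrial serine hydroxymethyltransferase, measured 28.0, 31.2 and 31.3 in control and 29.1, 29.8 and 26.4 with dopamine, with a log2 difference of -0.09 (95% interval -0.27 to 0.10). SHMT2 was 8.03 to 9.12 times its cytosolic counterpart SHMT1 in FPKM over the 6 libraries. PSPH and SHMT1 had log2 differences of 0.04 and -0.08, and their groups overlapped.

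ASNS (chr7:97481430-97501854 in hg19), asparagine synthetase and a much-used readout of ATF4 activity, measured 4.93, 4.53 and 5.61 FPKM in control and 6.76, 6.61 and 7.35 with dopamine. All dopamine samples were above all controls, and replicate 3 was the highest in both groups. The means were 5.02 ± 0.548 and 6.91 ± 0.392 (SD, n = 3 each), a log2 difference of 0.43 (SE 0.11, adjusted p = 0.11), and 0.25 after correction. Its log2 value was above 0 in all 26 alternatives, from 0.19 to 0.50, and it was called in 2 of them. The other 4 genes of the group had overlapping samples, while 24.4% of all genes were higher and 14.1% lower with no overlap. PYCR1, the last step of proline synthesis, measured 46.4, 46.9 and 45.7 in control and 46.3, 45.0 and 34.9 with dopamine, with dopamine replicate 3 far under the rest. Its log2 difference was -0.15, and -0.02 without that library and 0.00 after correction. ALDH18A1, the step before it, and the transaminases GPT2 and GOT1 had log2 differences of 0.04, 0.04 and 0.02.

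CBS and CTH turn homocysteine into cysteine by transsulfuration, and cysteine feeds glutathione. CTH (chr1:70876901-70905534) measured 1.2, 1.09 and 1.04 FPKM in control and 1.76, 1.77 and 2.13 with dopamine. The lowest dopamine sample was well above the highest control, although at this level each value rests on few fragments. Its log2 difference was 0.56 (SE 0.13, adjusted p = 0.11), and 0.29 after correction. CBS, the enzyme before it, measured 6.72, 6.01 and 6.83 in control and 6.18, 5.47 and 6.09 with dopamine, overlapping, with a log2 difference of -0.13 (95% interval -0.36 to 0.10).

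Of the 20 synthetases none was called, compared with 0.102% of all genes. An unadjusted p under 0.05 was reached by 8 higher and 1 lower (24.4% and 8.05% of all genes). The median of the 20 was 0.16 as deposited and 0.05 after correction. Groups did not overlap in 7 higher (HARS, IARS, KARS, LARS, NARS, RARS and TARS) and 2 lower (FARSA and VARS), compared with 24.4% and 14.1% of all genes, and after correction in 5 higher and 0 lower, compared with 11.5% and 12.3%. Synthetases fall into class I and class II by the fold of their catalytic domain. The 10 of class I had a median of 0.09 and 0.08 after correction, and the 10 of class II a median of 0.23 and 0.02 after correction. EPRS, which charges both glutamate and proline tRNA, was counted in class I only. The 8 synthetase genes of the multisynthetase complex, a cytosolic assembly of these enzymes, had a median of 0.35, and 0.12 after correction. Across the 20, log2 difference and GC content had r = -0.88, and -0.47 after correction.

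NARS, which charges asparagine tRNA, measured 16, 13.5 and 9.26 FPKM in control and 17.6, 18.7 and 23.7 with dopamine. The groups did not overlap, with control replicate 3 far under the rest. The log2 difference was 0.63 (SE 0.18, adjusted p = 0.11), and 0.37 after correction, the largest of the synthetases in both. RARS, for arginine, measured 19.1, 18 and 12.5 in control and 22.0, 23.0 and 30.0 with dopamine. It shared the low control replicate 3 and the high dopamine replicate 3, and its log2 difference was 0.59 (SE 0.17, adjusted p = 0.11), and 0.27 after correction. EPRS, which charges both glutamate and proline tRNA, measured 11.3, 8.79 and 5.32 in control and 11, 12.3 and 14.6 with dopamine. Control replicate 1 lay above dopamine replicate 1, so the groups overlapped, and the log2 difference was 0.60 (SE 0.22, adjusted p = 0.122), and 0.31 after correction. It was 0.32 without control replicate 3. Without replicate 3 of both groups, NARS, RARS and EPRS were 0.29, 0.27 and 0.22. IARS, LARS and TARS had log2 differences of 0.39, 0.49 and 0.53, and of 0.11, 0.15 and 0.24 after correction.

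KARS, for lysine (chr16:75661622-75682541), had controls close together, at 43.5, 41.1 and 40.8 FPKM, and measured 49.2, 52.0 and 56.0 with dopamine. Every dopamine sample was above every control, and the log2 difference was 0.32 (SE 0.08, adjusted p = 0.11), and 0.13 after correction. GARS, for glycine, measured 32.8, 26.0 and 29.1 in control and 34.4, 31.9 and 38.9 with dopamine. Control replicate 1 was above dopamine replicate 2, so the groups overlapped, and the log2 difference was 0.26 (SE 0.11, adjusted p = 0.139), and 0.13 after correction.

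FARSA and VARS were the members whose groups separated downwards. FARSA, the catalytic subunit for phenylalanine, measured 122, 138 and 136 FPKM in control and 121, 121 and 112 with dopamine. The gap between the groups was very small, and the log2 difference was -0.16 (SE 0.08, adjusted p = 0.18), and -0.04 after correction. VARS, for valine (chr6:31745295-31763730), measured 43.0, 46.0 and 45.9 in control and 40.1, 41.5 and 32.8 with dopamine. Dopamine replicate 3 was far under the rest, and the log2 difference was -0.24 (SE 0.10, adjusted p = 0.133), -0.14 without that sample, and -0.08 after correction. FARSB, the partner subunit of FARSA, was named after its values were seen and had a log2 difference of 0.21 as deposited and -0.12 after correction. The FARSA to FARSB ratio in FPKM was 7.92, 11.2 and 11.6 in control and 9.38, 7.91 and 6.31 with dopamine, so the groups overlapped. FARSA is the richer in GC, at 60.3% compared with 41.6%.

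AARS and WARS, for alanine and tryptophan, had small differences and overlapping groups. AARS measured 31.5, 28.9 and 32 FPKM in control and 31.7, 31 and 30.3 with dopamine, a log2 difference of 0.01 (95% interval -0.16 to 0.18). WARS measured 24.5, 24.0 and 27.7 in control and 26.2, 26.7 and 26.9 with dopamine, a log2 difference of 0.07 (95% interval -0.11 to 0.25). Both signs turned with median-of-ratios scaling, to -0.08 and -0.02. The remaining synthetases, CARS, DARS, HARS, MARS, QARS, SARS and YARS, had log2 differences of 0.11, 0.27, 0.12, -0.01, -0.08, 0.08 and 0.04 in that order. After correction these were 0.06, -0.06, -0.07, 0.00, -0.04, 0.03 and 0.09, so that the signs of DARS and HARS turned.

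**Figure D3:**
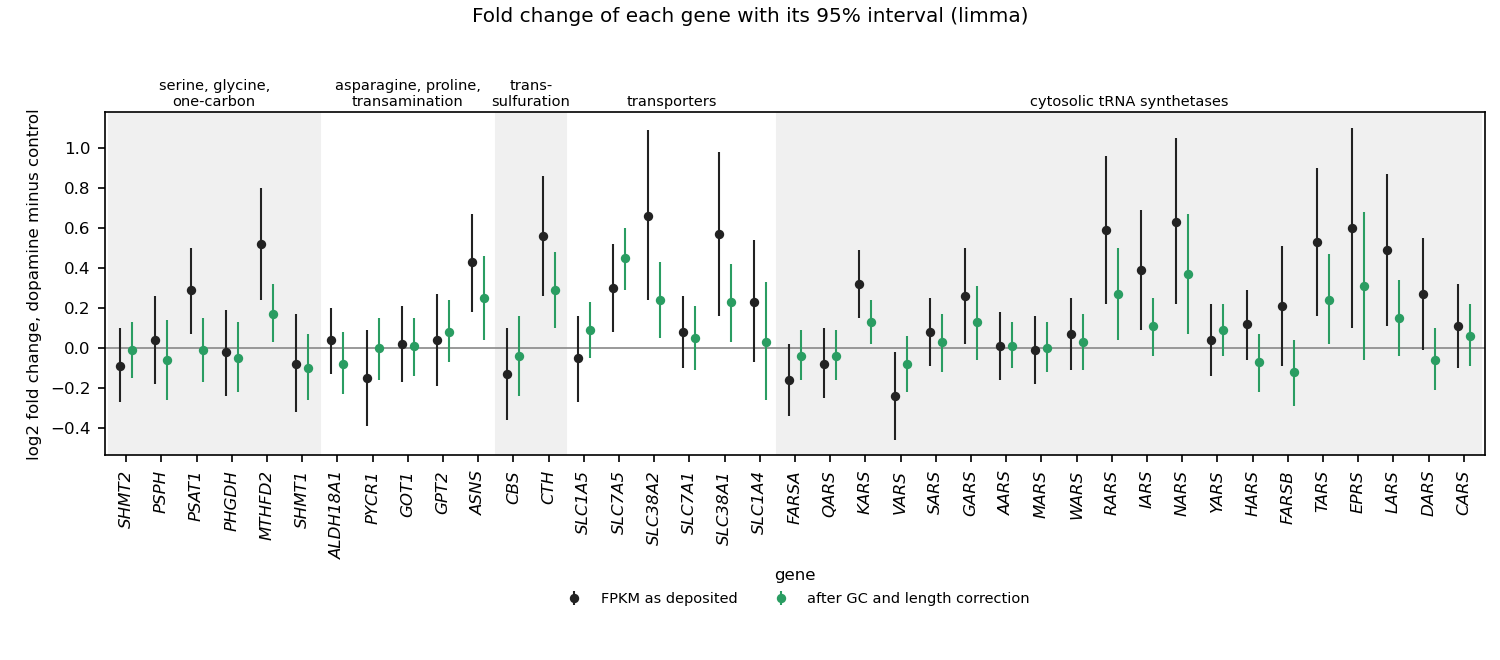
Log2 difference (dopamine minus control, vertical) of each of the 39 genes with its 95% interval from limma, as deposited and after the GC and length correction. SLC7A5 is the highest after correction, at 0.45, while PSAT1 goes from 0.29 to -0.01.

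Members with a motif match had a median log2 difference of 0.23 (11 of 13 above 0) and those without one 0.16 (13 of 18). After correction the medians were 0.09 (13 of 13 above 0) and 0.01 (9 of 18). Among the 13, MARS then rounded to 0.00 and AARS and GOT1 to 0.01. Over the alternative settings each of these ran to both signs, from -0.10 to 0.05, -0.08 to 0.08 and -0.07 to 0.08. Members were also looked up by synonym, and all tested genes by symbol alone. Renamed members such as AARS and NARS are therefore missing from the shares that follow. Among all tested genes found by symbol, 70.6% of the 194 with a match and 61.6% of the 7772 without were above 0, and 57.7% and 49.1% after correction. No test was made of this difference, and SLC7A5 and SLC38A2, the largest after and before correction, had no match in the windows searched.

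**Figure D4:**
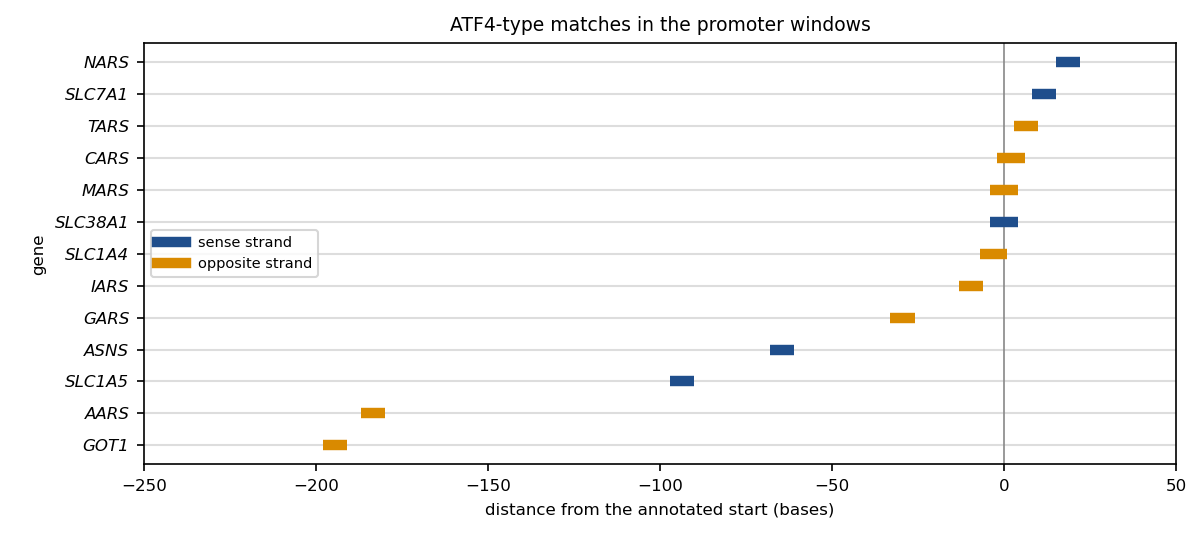
Position of the TGATGNAA match in bases from the first transcribed base (horizontal) for the 13 members that hold one (vertical). The matches run from -198 in GOT1 to 22 in NARS, most of them near the start.

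Other genes of the pathway were taken from lists of 95 symbols, of which 94 were in the table and 70 were tested. Called were 1 higher gene, DDIT3, and 0 lower, compared with 0.0848% and 0.0170% of all genes. The correction left 2 called higher and 0 lower, compared with 0.207% and 0.0345%. As deposited, 20 higher and 2 lower genes reached an unadjusted p under 0.05 (24.4% and 8.05% of all genes). After correction 12 higher and 6 lower did (8.14% and 8.82% of all genes). The median log2 difference of the 70 was 0.08, the value over all genes, and 0.02 after correction. DDIT3, which encodes the stress factor CHOP downstream of ATF4, measured 3.96, 4.90 and 3.70 FPKM in control and 8.97, 8.71 and 7.74 with dopamine, a log2 difference of 0.94 (SE 0.12, adjusted p = 0.0280), and 0.87 after correction. ATF4 itself, whose activity is set largely by translation, measured 42.0, 43.4 and 44.5 and then 48, 49.1 and 45.3, a log2 difference of 0.13 (adjusted p = 0.215). Its dopamine samples all lay above the controls, dopamine replicate 3 only just. ATF5, a related factor, had a log2 difference of -0.31 and EIF2AK3, the kinase PERK, one of 0.68, and neither was called. After correction ATF4, ATF5 and EIF2AK3 had 0.19, -0.19 and 0.42. Targets TRIB3, DDIT4 and XPOT had -0.24, 0.24 and 0.44, and -0.10, 0.33 and 0.08 after correction.

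Among 12 other transporters tested, 0 were called as deposited, compared with 0.102% of all genes. SLC7A11, the cystine importer xCT and a target of both ATF4 and NRF2, measured 1.32, 1.28 and 0.777 FPKM in control and 2.60, 3.37 and 4.11 with dopamine. Its groups lay far apart, with a log2 difference of 1.25 (SE 0.19, adjusted p = 0.0753), larger than that of any of the 39 members. It was called after correction, at 0.76. SLC6A15 and SLC6A6, carriers of branched-chain amino acids and of taurine, had 0.74 and 0.20, and 0.31 and 0.13 after correction. Of 16 mitochondrial synthetases tested 0 were called (0.102% of all genes), and their median was 0.06, and -0.03 after correction. NARS2, IARS2 and YARS2 had 0.36, 0.31 and 0.27, and 0.10, 0.03 and 0.17 after correction. Of the complex scaffolds and editing factors, AIMP1, DTD1 and AIMP2 had 0.53, 0.08 and 0.06, and 0.10, -0.13 and 0.02 after correction. The enzymes OAT, BCAT1 and GLUD1 had 0.53, 0.48 and 0.29, and 0.21, 0.05 and 0.09 after correction, none called.

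Some levels may include fragments of a neighbour. In the hg19 coordinates 16 members overlap another listed gene, 8 of them a gene with a mean of 1 FPKM or more, and whether the counting used strand was not given in the sources used here. Among them, KARS shares 858 bases with TERF2IP and MARS shares 982 with DDIT3. HARS overlaps both WDR55 and HARS2, while FARSA, PYCR1, WARS and YARS overlap genes of lower level. Fragments in shared bases cannot be assigned from FPKM, so these values are uncertain.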

How the data were processed

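RNA was extracted with TRIzol and made into stranded libraries after removal of ribosomal RNA, per the labels' protocols. The authors deposited FPKM values for 26789 genes with hg19 coordinates. Tools named in the submitters' processing notes, with no role given, are STAR 2.7.1a, FastQC 0.11.9, DESeq2 1.40.2 and HTSeq 0.11.2, and the build is hg19. The FPKM formula, annotation and strand setting were not given in the sources used here. FPKM shares each library's total among its genes, so a rise of some lowers others.

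Depth was recovered from the steps between low values of short pseudogenes, of which 92.2 to 94.1% were whole fragments within 0.03. Genes with a mean of 1 FPKM or more (11791) were compared as log2(FPKM + 0.5), which understates changes of low genes, with limma 3.58.1 in R 4.3.3 (two-sided moderated test, trend, Benjamini-Hochberg, threshold 0.05, no block). The correction was a loess fit (span 0.5) of each library on the GC content and log2 length of each gene's longest GENCODE transcript (GRCh38, matched by gene identifier, no coordinates used), available for 98.2% of tested genes.

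The members and lists were chosen with earlier results of these data known. Sample values are given for any member called, the 4 largest rises and falls, the 2 smallest p of each role and ASNS, PHGDH, PSAT1, SHMT2, MTHFD2, SLC7A5, SLC7A1, WARS, GARS, AARS and EPRS. In each other list, called genes and up to 3 with the smallest p are named, with ATF4, DDIT3 and HMOX1 whatever their result. Values of SLC38A1, FARSB and SLC3A2, the members listed by change alone, and the split at 48% GC were added after the values were seen. Alternatives were other pseudocounts, filters, scalings, prior settings, sample quality weights, a replicate block and leaving out libraries; the correction without each library was added after seeing the data.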

Additional observations from a re-analysis of the deposited data

How the results depend on the processing

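No member was called lower in any setting. Members called higher numbered 16 with sample quality weights, where 17.4% of all genes were, and 12 without control replicate 1 (16.8%), all 12 among the 16, and 0 to 12 over the settings that left out libraries. Genes called over the table, 12 in all, became 6 with no filter, 27 with quantile normalization, 5 with no trend, 2706 with sample quality weights, 28 after the GC and length correction, 6 at a threshold of 0.01, 7 without both 3rd replicates and 3 to 2177 without single libraries. The members' median of 0.11 became 0.02 with median-of-ratios scaling, 0.14 with weights and 0.03 with the correction, with or without a replicate block. The cause of these shifts was not tested.

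Same-numbered samples deviated from their group means with correlations of -0.20, 0.28 and -0.37. With 3 samples a group and GC trends that differ between libraries, these values cannot show whether the numbers mark pairs. The replicate block called 3 genes and 0 members, and 8 genes and 0 members with the correction.

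Of the 20 members with sample values, 8 turned sign in some setting. PHGDH was 0.06 with weights, -0.07 to 0.06 without single libraries, 0.09 without both 3rd replicates, and -0.09 to 0.03 with the correction and a library left out. PSAT1 was -0.01 with the correction, with or without the block, and with a library also left out it ran from -0.05 to 0.06 (-0.04, -0.03 and -0.02 in 3 of these), compared with 0.21 to 0.36 uncorrected. Without libraries, corrected or not, values ran from -0.14 to 0.03 for SHMT2, -0.22 to 0.06 for PYCR1, -0.18 to 0.03 for CBS, -0.03 to 0.04 for AARS (0.05 without both 3rd replicates) and 0.00 to 0.13 for WARS. With median-of-ratios scaling SLC7A1, AARS and WARS were -0.01, -0.08 and -0.02. Of 39 members 18 kept 1 direction in every alternative they entered (CTH and SHMT1 were not in the fit filtered at 5 FPKM), and 23 were called in none. Depth limits CTH most, at about 44 to 93 fragments a library, then SHMT1 at 179 to 228 and SLC1A4 at 191 to 274.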
